A study of Mus musculus with 6 samples.

Results

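The genes described here encode enzymes that remove superoxide and hydrogen peroxide: the superoxide dismutases Sod1 and Sod2, catalase (Cat), the peroxiredoxins Prdx1 to Prdx6, and Txnrd1, a thioredoxin reductase that keeps peroxiredoxins supplied with electrons. They were chosen by name, 10 in all, out of 18193 genes that had at least 1 probe set annotated with a single gene symbol, and 7 of the 10 had such a probe set. Prdx1 was covered by 5 probe sets that also carry the symbol of a second gene, and Prdx5 and Prdx6 were matched to no probe set of the annotation used, so these 3 genes were not analysed here. Each measured gene is represented by its brightest probe set, the one with the highest mean over the 6 arrays, and its other probe sets serve as a check.

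RNA came from the distal jejunum of 6 mice, 7 months of age, with 1 Affymetrix array per animal. In 3 mutants Hnf4a, the gene of a nuclear receptor of gut and liver epithelium, had been deleted in the intestinal epithelium by Cre recombinase under the 12.4-kb Villin promoter, and 3 littermates served as controls. Both groups carry the same strain label, B6.129X1(FVB)-Hnf4atm1.1Gonz/J, whose Hnf4a allele is floxed, and both received ketamine (300 mg/kg) and xylazine (40 mg/kg) before death. The sources used here do not say whether the controls carried the Cre transgene. The labels describe biopsies of whole jejunum, so the signal mixes epithelium, in which Villin-Cre acts, with muscle, stroma and immune cells. The series title asks whether Hnf4a protects against reactive oxygen species, which is the question these enzymes bear on.

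Superoxide leaks from the respiratory chain and is made by oxidases. Superoxide dismutases turn it into hydrogen peroxide, Sod1 mainly in the cytosol and Sod2 in the mitochondrial matrix. Catalase breaks hydrogen peroxide down to water and oxygen in the peroxisome, while peroxiredoxins reduce it with a reactive cysteine, Prdx2 in the cytosol, Prdx3 in mitochondria and Prdx4 in the endoplasmic reticulum. Thioredoxin restores the cysteine of most of these peroxiredoxins and is itself reduced by thioredoxin reductase with electrons from NADPH.

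Hnf4a separated the groups as labelled, with log2 signals of 11.82, 11.76 and 11.57 in controls 1 to 3 and 8.83, 8.83 and 9.82 in mutants 1 to 3 (log2 change -2.56 ± 0.25 SE, limma adjusted p = 0.00756). Array medians lay between 3.93 and 3.98 and rank correlations between arrays between 0.980 and 0.987. Pancreatic acinar transcripts stood out in control 3, where the mean of 7 markers was 7.78 against 4.19 to 4.41 elsewhere, and fat transcripts in mutant 2, where the mean of 5 markers was 8.18 against 6.41 to 6.76. Values without these 2 arrays are given for catalase. None of the 7 genes passed the test without them, but only 4 of all 18193 genes did. With so few arrays the test could hardly call a gene, so it cannot show what these transcripts contribute.

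None of the 7 measured genes passed the test at an adjusted p under 0.05 in limma, against 0.528% of all 18193 genes (96 genes). At an unadjusted p under 0.05 there was 1 gene of the 7, Cat, against 12.1% of all genes. Mutant means lay below control means for 6 of the 7 and above for Sod1, beside 9688 below among all 18193 genes. The differences ran from -0.73 for Cat to 0.15 for Sod1 on the log2 scale with a median of -0.098, beside a median of -0.013 over all genes. The difference next in size to that of Cat was the -0.22 of Sod2.

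**Figure D1:**
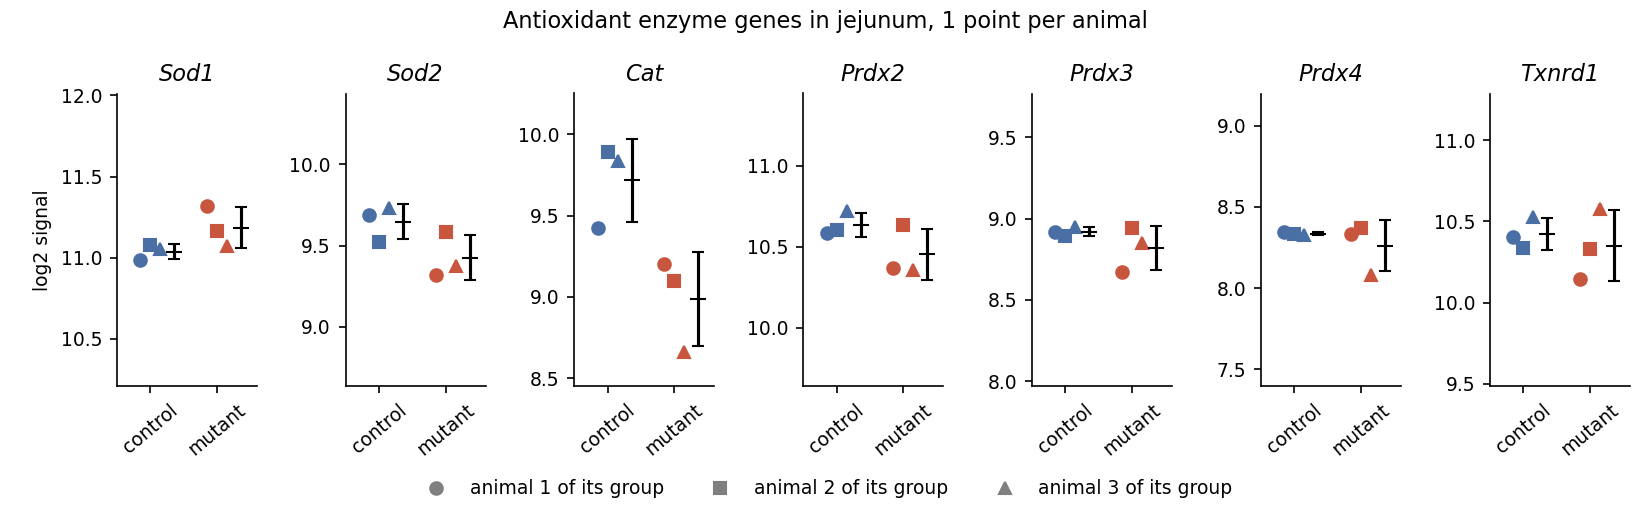
Log2 signal (vertical axis, each panel spanning the same number of log2 units) of the brightest probe set of 7 genes in each animal; blue points are controls, red points mutants, the symbol gives the animal, and the black mark with its bar is the group mean ± SD (n = 3). Cat is the gene of the 7 whose 3 mutants (8.66 to 9.20) all sit below its 3 controls (9.42 to 9.89).

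Catalase signal was lower in every mutant than in every control. Its brightest probe set, 1416429_a_at, read 9.42, 9.89 and 9.84 in controls 1 to 3 and 9.20, 9.10 and 8.66 in mutants 1 to 3. The groups did not overlap, a pattern shared by 17.1% of all genes in either direction and by 10.2% in this direction, and the gap between control 1 and mutant 1 was 0.22. Control 1 lay closer to the mutants than controls 2 and 3 did, and mutant 3 was the lowest array. Controls averaged 9.72 ± 0.26 (SD, n = 3) against 8.99 ± 0.29 (SD, n = 3) for the mutants, a log2 difference of -0.73 ± 0.18 SE with a 95% interval from -1.15 to -0.32. On a linear scale the mutant level was 60.3% of control, with an interval from 45.2% to 80.4%. The difference ranked 423rd of all genes by p-value and did not pass (limma, unadjusted p = 0.00361, adjusted p = 0.155).

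The other catalase probe set, 1416430_at, also had every mutant below every control, with a wider gap between the groups. It read 9.66, 9.88 and 9.89 in controls and 8.96, 9.17 and 8.48 in mutants, a difference of -0.94 with a 95% interval from -1.35 to -0.53 (limma over all probe sets, adjusted p = 0.108). Where this probe set stood for the gene, because its identifier lacks the suffix that marks probes shared between transcripts, the adjusted p over all genes was 0.0814, the lowest of the 16 alternatives tried. The highest, 0.642, came without control 3 and mutant 2 together, where the difference was -0.73. With 1 array left out at a time the difference lay between -0.88 (without control 1) and -0.57 (without mutant 3), and adjusted p between 0.127 and 0.505. In bulk tissue, fewer cells that express a gene and less RNA per cell cannot be told apart.

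No marker gene of another cell type passed the test, and the part of other cells in the catalase difference was not tested. Epithelial markers, among them Epcam, Vil1 and Cdh1, were all measured (9 of 9), with a list mean of 11.52 to 11.56 in controls and 11.59 to 11.85 in mutants and 0 members past the test. Of the 9, 2 were higher and 0 lower at an unadjusted p under 0.05 in limma, against 5.24% and 6.85% of all genes. T cell markers lay above the control mean for 10 of 11 genes, 0 of them past the test and 7 higher at an unadjusted p under 0.05 in limma, against 5.24% of all genes higher at that level. Their list means were 6.46, 5.29 and 5.90 in controls 1 to 3 and 6.34 to 6.95 in mutants. Smooth muscle list means overlapped (9.60 to 9.93 in controls, 9.64 to 9.90 in mutants). Of 6 red blood cell markers 3 were measured, with list means of 3.06 to 3.23 in controls and 3.06 to 3.54 in mutants. Of these 3, 2 read at or below the array median on all 6 arrays, and Alas2 read 4.26 in mutant 1 and 3.27 to 3.59 in the other arrays.

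The promoter of the catalase gene is shown because catalase is the gene of the 7 that lay farthest from its control level. Beside it is that of Sod1, whose mutant mean was higher at the brightest probe set. That Sod1 difference was not detectable, and its sign varied between probe sets. Each run is the 250 bases before the annotated start, 5′ to 3′ on the gene's strand, from RefSeq (build GRCm38.p6), for Cat at chr2:103485154-103485403 on the minus strand and for Sod1 at chr16:90220512-90220761 on the plus strand. Capitals mark the CCAAT box, the letters CCAAT on either strand.
Cat: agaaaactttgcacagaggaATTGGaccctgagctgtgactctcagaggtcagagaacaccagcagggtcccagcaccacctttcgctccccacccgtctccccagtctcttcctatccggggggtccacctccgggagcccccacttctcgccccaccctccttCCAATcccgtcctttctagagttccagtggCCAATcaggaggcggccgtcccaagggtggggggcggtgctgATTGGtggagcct
Sod1: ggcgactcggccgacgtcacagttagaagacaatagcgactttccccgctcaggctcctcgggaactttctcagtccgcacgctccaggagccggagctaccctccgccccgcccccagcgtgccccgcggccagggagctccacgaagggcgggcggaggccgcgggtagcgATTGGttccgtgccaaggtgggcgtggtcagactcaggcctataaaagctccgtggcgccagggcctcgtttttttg
The Cat window held 4 CCAAT matches, starting 230, 85, 55 and 13 bases before the start, and the Sod1 window held 1. Among 32851 RefSeq promoters searched over the same 250 bases, 33.8% held at least 1 CCAAT and 2.79% held 3 or more. The TATA box letters TATAAA were found in the Sod1 window, 37 bases before the start, and not in that of Cat, while 12.4% of all promoters held them. The letters CAAAGTCCA, a core of the Hnf4a binding motif, were in none of the 9 promoter windows of the 7 genes and in 0.384% of all windows. At so low a share 9 windows would mostly hold none, and other forms of the motif were not searched. The search therefore cannot show whether these windows lack Hnf4a sites. The core of the antioxidant response element, TGACNNNGC, which the stress regulator Nrf2 binds, was in 2 of the 9, those of Sod1 and of 1 of the 3 Txnrd1 starts, against 10.2% of all. The GC box letters GGGCGG were in 6 of the 9, those of Cat and Sod1 among them, against 32.7% of all. All searches covered both strands, no CCAAT match overlapped a match of another motif searched, and a match is a description of letters, not of binding.

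The cytosolic dismutase Sod1 did not differ detectably. Its brightest probe set, 1459976_s_at, read 10.98, 11.08 and 11.05 in controls and 11.32, 11.16 and 11.07 in mutants. Mutant 3 lay inside the control range and the groups overlapped. The difference was 0.15 ± 0.10 SE with a 95% interval from -0.094 to 0.39 (limma, adjusted p = 0.652), that is a mutant level between 93.7% and 131% of control. Another bright Sod1 probe set, 1451124_at, gave 0.077, and a dimmer one, 1435304_at, gave -0.32 (unadjusted p = 0.0470, adjusted p = 0.465 over all probe sets in limma). Control means were 11.04 for 1459976_s_at, 10.55 for 1451124_at and 5.48 for 1435304_at. The brighter probe sets of Sod1 therefore agreed in direction and the dimmer one did not, and the sign of its difference rests on which one is read.

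Sod2, the manganese dismutase of the mitochondrial matrix, read 9.69, 9.52 and 9.73 in controls and 9.32, 9.58 and 9.37 in mutants. Mutants 1 and 3 lay below all controls and mutant 2, the array with fat transcripts, lay among them. The difference of -0.22 ± 0.11 SE did not pass (limma, adjusted p = 0.508), and its 95% interval, -0.49 to 0.043, allows a mutant level from 71.4% to 103% of control. The other 2 Sod2 probe sets above the array medians gave -0.18 and -0.14.

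Among the peroxiredoxins no difference reached 0.2 in size at the brightest probe set. Prdx2, the cytosolic form also abundant in red blood cells, read 10.58, 10.60 and 10.72 in controls and 10.37, 10.64 and 10.35 in mutants. Mutants 1 and 3 were low and mutant 2 lay within the control range, for a difference of -0.18 ± 0.11 SE (limma, adjusted p = 0.602). Its dimmer probe set, 1430979_a_at, separated the groups, with 7.82, 7.72 and 7.68 in controls and 7.59, 7.62 and 7.18 in mutants, a difference of -0.28 (limma over all probe sets, adjusted p = 0.537). Mutants lay below controls without overlap in 10.2% of all genes.

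Prdx3, which removes hydrogen peroxide in mitochondria, was even across controls at 8.92, 8.89 and 8.95 and read 8.67, 8.94 and 8.85 in mutants. Mutant 2 overlapped the controls, and the difference was -0.098 ± 0.11 SE (limma, adjusted p = 0.790). The 95% interval allowed a mutant level between 79.0% and 111% of control.

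Prdx4, which uses hydrogen peroxide to oxidise protein disulfide isomerases during folding, read 8.35, 8.33 and 8.33 in controls and 8.33, 8.37 and 8.08 in mutants. Mutant 3 alone was low, and the difference was -0.075 ± 0.11 SE (limma, adjusted p = 0.858). A second probe set, 1416166_a_at, pointed the other way, with 5.81, 5.82 and 5.77 in controls and 6.56, 6.12 and 5.80 in mutants, a difference of 0.36 that did not pass either (limma over all probe sets, adjusted p = 0.553). On this probe set mutants 1 and 2 lay above all controls and mutant 3 among them, whereas on the brightest probe set mutant 3 lay below all controls. Plasma cells secrete much protein. A joint list of B cell and plasma cell markers had means of 6.75 to 7.77 in controls and 7.48 to 7.93 in mutants, with 0 of 10 past the test. At an unadjusted p under 0.05 in limma 2 were higher, against 5.24% of all genes. Those 2 were Sdc1 and Tnfrsf17, and the other genes of the list, Jchain and Mzb1 among them, did not reach that level. The part of these cells in the Prdx4 values was not tested.

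Txnrd1 read 10.40, 10.34 and 10.53 in controls and 10.14, 10.33 and 10.58 in mutants. Mutants 1 and 3 lay on either side of all controls, so the difference of -0.072 ± 0.13 SE (limma, adjusted p = 0.890) was smaller than the spread among mutants (SD 0.22, n = 3). Its 95% interval corresponded to 77.1% to 117% of control. A dimmer Txnrd1 probe set, 1424486_a_at, had an SD of 0.42 in controls and 0.55 in mutants (n = 3 each) and gave -0.37.

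The 7 genes had 21 probe sets with their symbol alone. Of these, 4 read below the array median on all 6 arrays, close to background, and of the other 17 the mutant mean was lower for 14 and higher for 3. At an unadjusted p under 0.05 in limma there were 3 of the 17, both of Cat and 1 of Sod1, and 0 passed the adjusted threshold. Over all genes, each by 1 probe set, 9688 of 18193 lay lower and 12.1% had an unadjusted p under 0.05. Probe sets of the same gene are repeat measures, so the 17 are not independent. At the brightest probe set the SD among mutants exceeded that among controls for 7 of 7 genes, beside 63.2% of all genes. Some other probe sets went the opposite way, among them Sod1 1451124_at (SD 0.20 in controls, 0.13 in mutants) and Sod2 1448610_a_at (0.18 and 0.16).

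**Figure D2:**
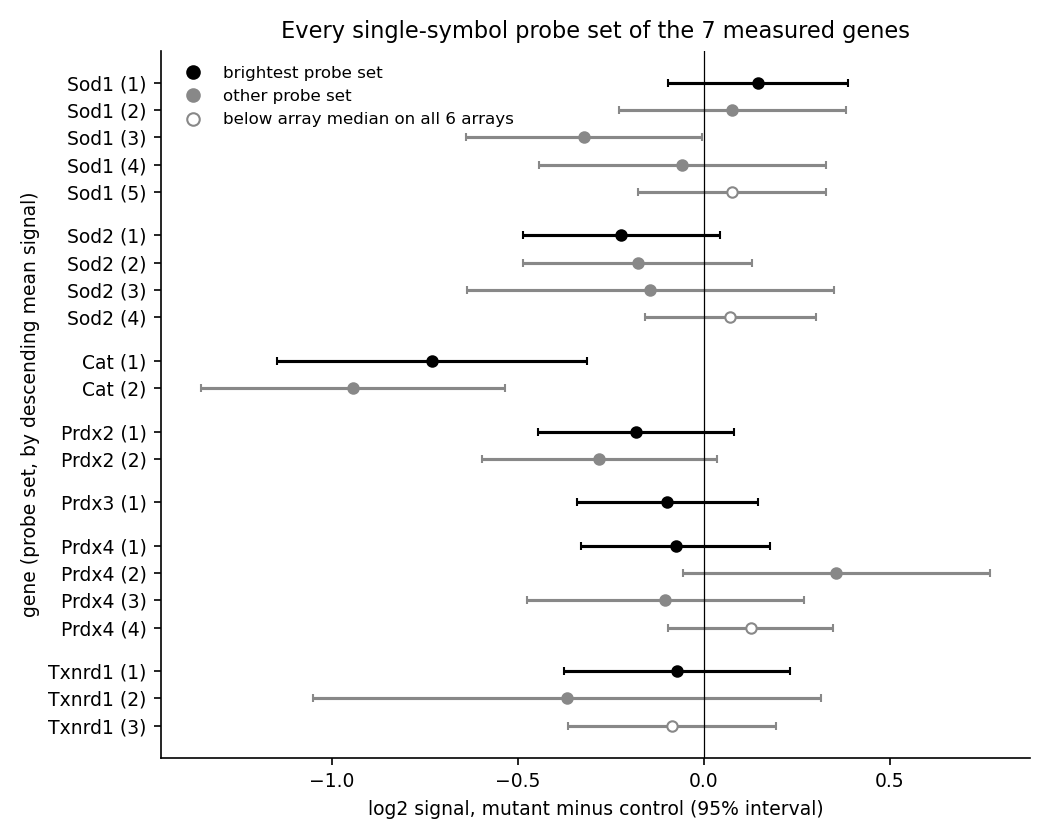
Log2 difference, mutant minus control, with its 95% interval from limma (horizontal axis) for all 21 probe sets, listed by gene and by descending mean signal; black marks the brightest probe set and open points those below the array median on all 6 arrays. Both Cat probe sets lie at -0.73 and -0.94 with intervals below 0, while those of Sod1 and of Prdx4 fall on both sides of 0.

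The balance between making and removing hydrogen peroxide was compared within each array, as the log2 difference between 2 genes. Sod1 over Cat, a gene whose product makes hydrogen peroxide over one that removes it, was set to 0 at the control mean and read 0.24, -0.13 and -0.11 in controls and 0.79, 0.75 and 1.09 in mutants. All mutants lay above all controls, and the ratio was 1.84-fold higher in mutants (log2 difference 0.88, two-sided exact permutation p = 0.1, the smallest that 3 against 3 arrays can give). Cat alone differed by -0.73 and Sod1 by 0.15, the latter with a sign that varied between probe sets. The ratio therefore mostly restates the Cat difference and is not a separate result. Sod2 over Prdx3, the matching pair of the mitochondrial matrix, read 0.042, -0.096 and 0.055 in controls and -0.080, -0.082 and -0.21 in mutants, a difference of -0.12 (exact permutation p = 0.3). Control 2 lay below mutants 1 and 2, so these groups overlapped. A ratio within an array can show at most that 2 transcripts changed unequally, and it carries no measure of enzyme activity.

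**Figure D3:**
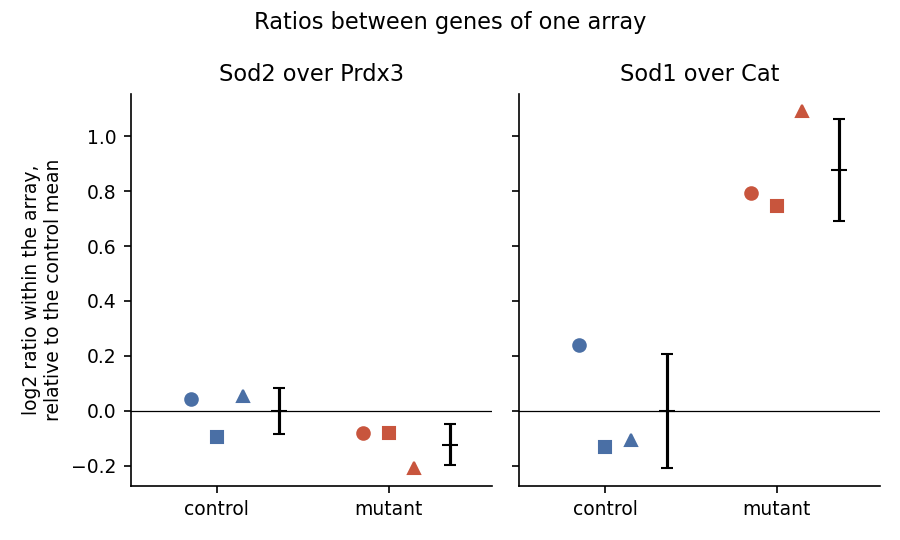
Log2 ratio of 2 genes within each array, relative to the control mean (vertical axis), for Sod2 over Prdx3 and Sod1 over Cat; points are animals with the symbols used for the values by animal (circle 1, square 2, triangle 3), and black marks are means ± SD (n = 3). The mutants sit between 0.75 and 1.09 for Sod1 over Cat and between -0.21 and -0.080 for Sod2 over Prdx3.

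Catalase works in the peroxisome, and mutant means lay lower for 12 of 13 other listed genes of that organelle. Of these 12, Pex11a (-0.024) and Pex14 (-0.0029) lay close to 0. The list was chosen with earlier results of these data known, so its counts are a description and not a test. Of 13 measured genes of peroxisomal import and oxidation, 0 passed the test. At an unadjusted p under 0.05 in limma 9 were lower and 1 higher, against 6.85% and 5.24% of all genes. The list median was -0.38, beside -0.013 over all genes. In 9 of the 13 all mutants lay below all controls, and in 1 all lay above, beside 10.2% and 6.93% of all genes. Hsd17b4, an enzyme of peroxisomal beta-oxidation, read 9.98, 10.08 and 10.20 in controls and 9.51, 9.55 and 9.12 in mutants (difference -0.69 ± 0.14 SE, adjusted p = 0.0897). Pex5, the receptor that carries catalase and other matrix proteins to the peroxisome and named here after its values were seen, read 6.34, 6.40 and 6.40 in controls and 5.79, 6.11 and 5.90 in mutants (difference -0.45 ± 0.11 SE, limma adjusted p = 0.156). Pipox, a peroxisomal oxidase that itself forms hydrogen peroxide, went the other way, from 7.06, 7.14 and 7.32 in controls to 7.78, 8.32 and 7.92 in mutants (difference 0.83 ± 0.16 SE, adjusted p = 0.0762).

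For mitochondria, home of Sod2 and Prdx3, 0 of 15 listed genes passed. At an unadjusted p under 0.05 in limma 1 was lower, which is near the 6.85% of all genes lower at that level. Mutant means lay lower for 12 of the 15, beside 9688 of all 18193 genes. All mutants lay below all controls in 3 of the 15 and above in 0, beside 10.2% and 6.93% of all genes. The list median of -0.13 lay between the difference of Prdx3, -0.098, and that of Sod2, -0.22. Vdac1, a channel of the outer membrane, differed by -0.26 ± 0.10 SE (limma, adjusted p = 0.356). Immt, a scaffold of the inner membrane, differed by -0.28 ± 0.13 SE (limma, adjusted p = 0.456). Vdac2, another channel of the outer membrane, named after its values were seen, differed by 0.026 ± 0.12 SE. In the endoplasmic reticulum, home of Prdx4, 0 of 13 oxidative folding genes passed, 2 were higher at an unadjusted p under 0.05 in limma, against 5.24% of all genes, and the median was 0.10. Those 2 were the chaperone gene Hspa5, at 0.56 ± 0.18 SE, and the disulfide isomerase gene Pdia4, at 0.47 ± 0.17 SE. Their adjusted p was 0.263 and 0.305 in limma. Mutant means lay higher for 8 of the 13 and lower for 5. Among the lower was P4hb, another disulfide isomerase gene, named after its values were seen. It differed by -0.17 ± 0.094 SE, with all mutants below all controls.

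**Figure D4:**
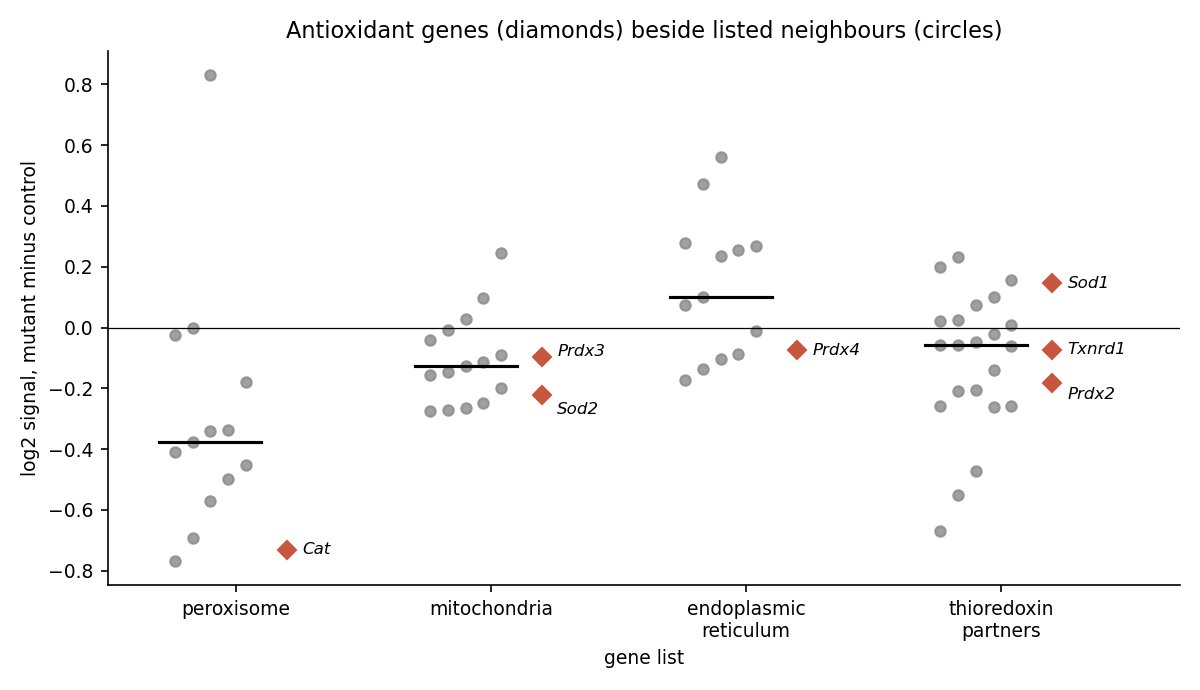
Log2 difference, mutant minus control (vertical axis), of listed genes of 3 compartments and of the thioredoxin pathway (grey circles, 1 per gene, with a black line at the list median) and of the 7 antioxidant genes (red diamonds). Cat, at -0.73, lies below the peroxisomal median of -0.38, and Sod2 and Prdx3 lie near the mitochondrial median of -0.13.

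Genes that work with these enzymes were taken from a list of 22, all measured, of thioredoxins, glutaredoxins, reductases, repair enzymes and cofactors. None passed over all genes, 4 were lower and 0 higher at an unadjusted p under 0.05 in limma, against 6.85% and 5.24% of all genes, and the median was -0.057. All mutants lay below all controls in 6 of the 22 and above in 0, beside 10.2% and 6.93% of all genes. Ccs, the chaperone that loads copper into Sod1, read 7.65, 7.66 and 7.85 in controls and 6.98, 7.45 and 7.08 in mutants, a difference of -0.55 ± 0.14 SE (limma, adjusted p = 0.170). Its groups did not overlap, unlike those of Sod1 itself.

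Msra, which repairs oxidised methionine, read 8.89, 9.03 and 9.03 in controls and 8.47, 8.45 and 8.02 in mutants (difference -0.67 ± 0.14 SE, limma adjusted p = 0.1001). Txndc17, a thioredoxin-like protein of the cytosol, differed by -0.26 ± 0.10 SE, and Sesn1, a stress-induced sestrin, by -0.47 ± 0.19 SE. The central electron carrier of the cytosol, Txn1, named after its values were seen, was flat at 13.14, 13.12 and 13.18 in controls and 13.06, 13.16 and 13.30 in mutants. Its mitochondrial counterpart Txn2 and the mitochondrial reductase Txnrd2, named likewise, each differed by -0.26 with adjusted p of 0.439 and 0.435 in limma.

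Of 12 measured regulators of antioxidant genes 0 passed, while 4 were higher and 1 lower at an unadjusted p under 0.05 in limma, against 5.24% and 6.85% of all genes, and the median was 0.0073. Nfe2l2, which encodes Nrf2, the main activator of genes with an antioxidant response element, read 10.19, 9.98 and 10.12 in controls and 9.67, 9.78 and 9.61 in mutants (difference -0.41 ± 0.10 SE, limma adjusted p = 0.169). Bach1, a repressor at the same elements, read 9.61, 9.74 and 9.70 in controls and 9.96, 10.09 and 10.67 in mutants (difference 0.56 ± 0.18 SE, limma adjusted p = 0.270). Neither gene's groups overlapped, a pattern shared by 17.1% of all genes, and the 2 lay on opposite sides of their controls. In the list of 12, all mutants lay below all controls in 1 and above in 3, beside 10.2% and 6.93% of all genes. The regulators named here are those with the smallest p, and a link between them was not tested. Foxo1, of the forkhead family whose members act on Sod2 and Cat, differed by 0.54 ± 0.12 SE (limma adjusted p = 0.109), and Rela, a subunit of NF-kB, by 0.36 ± 0.12 SE.

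By likeness of pattern over the 6 arrays, among 9095 genes brighter than the median gene, Cat was followed most closely by Polg2, an accessory subunit of the mitochondrial DNA polymerase (Pearson r = 0.998), and by Sdr42e1, of the short-chain dehydrogenase family (r = 0.994). Polg2 read 6.88, 7.36 and 7.31 in controls and 6.67, 6.59 and 6.24 in mutants, so it repeated the low value of control 1 and the lowest value in mutant 3. For Sod2 the closest were Pja1 (r = 0.992) and Tead3 (r = 0.990), and for Prdx2 they were Vamp8 (r = 0.996) and Rfc3 (r = 0.995). These correlations describe 6 arrays and carry no test.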

How the data were processed

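Total RNA from 6 jejunum samples was hybridised to Affymetrix arrays, per the labels. The authors' deposited values are log2 signals, 1 per probe set and array (45101 probe sets, 1.80 to 14.5); the sources used here state no background correction, summarisation or normalisation, and the scale was read from the values. The values were used as deposited. Probe sets were named from the platform annotation when it gave exactly 1 symbol (34945), and 932 with several symbols named no gene.

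Groups were compared with limma 3.58.1 (lmFit, eBayes; R 4.3.3) over all 18193 genes, in two-sided tests of the group term alone, with Benjamini-Hochberg adjustment and a threshold of 0.05. Each p-value rests on 3 animals a group, whose number limits the precision. On simulated arrays of 18193 genes for this comparison, the test recovered 14% of genes changed by 0.5 on the log2 scale, 70% at 1 and 100% at 2, so most differences of 0.5 would be missed. Two-sided exact permutation tests served the ratios within arrays; the planned ratio of Sod1 over Prdx1 was not run, since Prdx1 has no probe set of its own symbol alone.

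The members, gene lists and naming rule were chosen with earlier results of these data known. The rule named the 7 genes, Hnf4a, the 4 partners and 4 regulators and the 2 genes per compartment list with the smallest p, and the 2 genes most like each of the 3 members with the largest difference. Alternatives were quantile normalisation, median centring, 3 other rules for the probe set, a filter on dim genes, trend and robust fitting, array weights, the replicate number as a block, and arrays left out. The remaining marker lists gave median log2 differences of 0.18 (myeloid, 9 genes), 0.20 (fibroblast, 7), -0.16 (endothelium, 6), and 0.17 (Paneth and goblet, 8), each with 0 genes past the test. At an unadjusted p under 0.05 in limma, 3 genes were higher and 1 lower in both the myeloid and the Paneth and goblet list. The shares over all genes were 5.24% higher and 6.85% lower. The fibroblast and endothelium lists had 0 such genes.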

Additional observations from a re-analysis of the deposited data

How the results depend on the processing

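None of the 7 genes passed the threshold under any of the 16 alternatives, and none of the 22 thioredoxin partners did. Of 112 differences, 7 genes under 16 alternatives, 106 kept the direction reported and 6 reversed. Averaged over their probe sets, Sod1 read -0.016 and Prdx4 0.076, and with the probe set of highest variance -0.32 and 0.36; these genes' probe sets disagree. With 1 array left out, Txnrd1 ranged from -0.19 to 0.031 (the latter without mutant 1) and Prdx4 from -0.13 to 0.015 (the latter without mutant 3). The count of changed genes among all 18193, 96 as reported, was 150 with array weights, 62 with the replicate block, 22 to 96 with 1 array left out (24 without control 2, 22 without control 3, 41 without mutant 2) and 4 without control 3 and mutant 2 together. Replicate numbers are shared between groups, but the deviations of same-numbered arrays correlated at 0.073, 0.068 and -0.018, so the numbers were not taken to pair the animals; with the block Cat read -0.73 (adjusted p = 0.221). Sod1 over Cat stayed between 0.62 and 1.02 and Sod2 over Prdx3 between -0.17 and -0.020 under the alternatives run for them.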
